A study of Mus musculus with 2 samples.

Results

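Expression of 8 genes of the actin cytoskeleton was examined in single cells sorted as cones from a mouse model of cone dystrophy, with and without the histone demethylase inhibitor GSK-J4. The genes were the beta-thymosins Tmsb10 and Tmsb4x, the actins Actb and Actg1, the actin-binding genes Pfn1 and Cfl1, and the Arp2/3 subunits Arpc2 and Arpc3. They were chosen by name among the 17774 genes of the count table, where all 8 had a row, and Tmsb10 was chosen because it had the lowest value of all genes in GSK-J4-treated cells against uninjected cones. The difference between the libraries is therefore given here as a description. Tmsb10 had 13998 counts in uninjected cones, with counts in all 82 cells, and 0 counts in all 64 GSK-J4-treated cells. Tmsb4x, Actb, Actg1 and Pfn1 had 104 to 427 counts in uninjected cones and 0 to 2 with GSK-J4. Cfl1, Arpc2 and Arpc3 could not be told from equal shares of the counts when the libraries were summed.

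Both groups were GFP-positive cells sorted from retinae of C57BL/6 mice carrying the Pde6c cpfl1 mutation, in which cones die, together with an eGFP gene under the Chrnb4 promoter, which marks cones in this line. Age was PN24 in both groups by the labels, and wildtype or sham-injected cells were not analysed here. The GSK-J4-treated mice had received 1 intravitreal injection at PN14 with 10 µM GSK-J4, which inhibits Jumonji demethylases acting on lysine 27 of histone H3. Retinae were taken 10 days later. Names of cells in the treated library contain the word adult, which goes against the labelled age and could not be checked. Each group was 1 library, with 1 cell per well of a 96-well plate, so plate, batch and treatment cannot be told apart. The other group was not injected, so the injection, its vehicle and the drug cannot be told apart either. Cells are not replicates and no p-value is given. The libraries are called uninjected and treated below. How many mice each library held is not given in the sources used here.

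After filtering, 82 of 85 uninjected and 64 of 66 treated cells remained. Uninjected cells had a median of 8118 counts (860 to 98250) and treated cells a median of 2335.5 (420 to 15371), for 1113424 and 208578 counts in all. No cell name was shared by the libraries. Markers of cones, 11 of 11 measured, took 2.59% of uninjected counts (0.358% to 9.81% per cell) and 0.213% of treated counts (0% to 6.74% per cell). Opn1sw, Gngt2, Cngb3, Pde6c and Guca1a, all of them genes of cone phototransduction, were at 0 in the treated library, and 14 of its 64 cells had any cone marker count. In most treated cells the labelled cell type was thus not borne out by any of these markers at this depth. Mitochondrial genes took a median of 0.952% of the counts of a cell in the uninjected library (0.107% to 4.55%) and 0.0146% in the treated library (0% to 2.48%). Depth, cone marker level and mitochondrial share thus differed between the libraries, and their part in the differences between libraries below was not tested.

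Actin monomers assemble into filaments and leave them again, and the size of the free monomer pool is set by small binding proteins. Beta-thymosins such as Tmsb10 and Tmsb4x bind actin monomers and hold them back from assembly, profilin (Pfn1) loads monomers onto growing ends, and cofilin (Cfl1) severs and takes apart old filaments. The Arp2/3 complex, of which Arpc2 and Arpc3 encode subunits, starts new filaments as branches on existing ones. In photoreceptors, actin filaments are found in the connecting cilium, where new outer segment discs form, in the inner segment and at the synapse.

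Tmsb10 lies on chromosome 6 (GRCm38, chr6:72957347-72958748, minus strand), and Tmsb4x on the X chromosome (chrX:167207093-167209315, minus strand). Reads were aligned as stretches of 45 bases, so copies that share such stretches can exchange reads. Of the 1230 different 45-base stretches in the annotated Tmsb10 transcripts, 351 (28.5%) were also found in transcripts of other genes. Of these, 280 were shared with Gm9844, which is annotated as a retrogene on chromosome 7 (chr7:24862213-24862697, plus strand). The coding sequences are shown to make plain how near this copy is and how far apart the 2 thymosins are. They were read from the GRCm38 genome with GENCODE vM21, and capitals mark the bases that differ from Tmsb10.
Tmsb10: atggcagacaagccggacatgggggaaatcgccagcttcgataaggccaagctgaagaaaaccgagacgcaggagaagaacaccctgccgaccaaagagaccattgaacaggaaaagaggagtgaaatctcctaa
Gm9844: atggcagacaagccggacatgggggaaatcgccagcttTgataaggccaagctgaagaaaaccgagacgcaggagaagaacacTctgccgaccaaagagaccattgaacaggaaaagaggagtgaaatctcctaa
Tmsb4x: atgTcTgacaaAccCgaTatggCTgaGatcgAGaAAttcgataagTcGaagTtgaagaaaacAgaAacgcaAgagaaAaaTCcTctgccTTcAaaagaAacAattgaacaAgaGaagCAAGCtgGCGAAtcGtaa
All 3 coding sequences have 135 bases, or 44 codons before the stop. Gm9844 differed from Tmsb10 at 2 bases (98.5% identity), and the longest run shared by both was 51 bases. Tmsb4x differed from Tmsb10 at 40 bases (70.4% identity), with no shared run longer than 10 bases, and none of its 1367 stretches occurred in the transcripts of another gene. No exact 45-base stretch of Tmsb4x could therefore be taken for Tmsb10, while some reads of Tmsb10 and Gm9844 could be exchanged. Gm9844 had 115 counts in uninjected cones and 2 in treated cells, so the few counts of the copy were low in the same library.

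Tmsb10 was the most abundant of the 8 genes and stood at rank 7 of all genes by uninjected counts. Its counts per uninjected cell ran from 3 to 997 with a median of 71, and every cell had some. Scaled to 10000 counts per cell, the level ran from 13.7 to 608 with a median of 102 and quartiles of 60.3 and 202. No treated cell had a count. Tmsb10 was chosen for this difference, and Gngt2 likewise had counts in 100% of uninjected cells and 0 treated counts. Of 110 genes with at least 1000 uninjected counts, 47 (42.7%) had 0 treated counts. How many of these had counts in every uninjected cell was not counted. Over the library, 0 Tmsb10 counts allow a level of up to 0.144 per 10000, against 126 in the uninjected library (124 to 128, exact Poisson 95% interval). Tmsb10 was thus at least 874-fold lower in treated cells. This bound rests on a floor of 3 counts over the library, and all intervals here cover counting error only. By the same floor, 0 of 64 cells allows up to 4.69% of cells with a count at this depth (5.60% by the Clopper-Pearson interval), which does not limit how many cells expressed the gene.

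**Figure D1:**
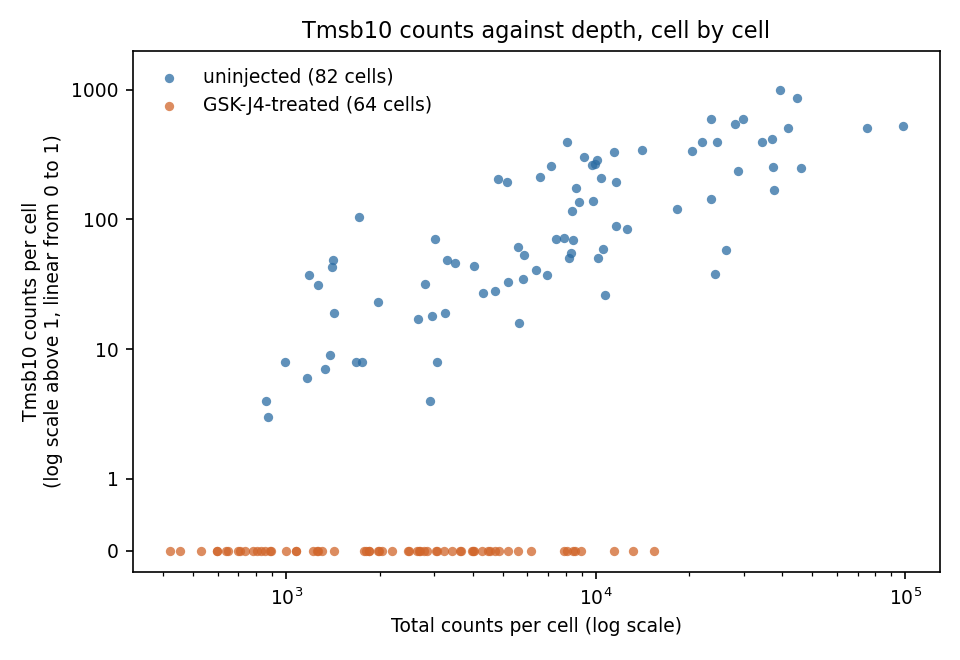
Tmsb10 counts (vertical axis, log scale above 1 and linear from 0 to 1) against total counts (horizontal axis, log scale) of each cell, with 82 uninjected and 64 GSK-J4-treated cells as points. Every uninjected cell lies at 3 counts or more at every depth, and every GSK-J4-treated cell lies at 0, also where the totals of the libraries overlap.

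The treated cells were shallower, so cells of like depth were set side by side. Among the 15 uninjected cells with a total at or below the treated median of 2335.5, Tmsb10 counts ran from 3 to 104 with a median of 9. Together they gave 359 of 20412 counts, or 176 per 10000, while the 32 treated cells in this range had 0 of 36152. Thinned to 867 counts per cell, 80 of 81 uninjected cells still had a Tmsb10 count, against 0 of 50 treated cells, which allows up to 6.0%. At or below the treated median every uninjected cell thus had a count, while after thinning not every one did. How many other genes show this at like depth was not counted. For cells at or below the treated median the floor is 0.830 per 10000, so the bound is lower, at least 212-fold. Of the 14 treated cells with a cone marker count, 69195 counts in all, 0 were from Tmsb10. At uninjected cell level, depth and Tmsb10 per 10000 were nearly unrelated (Spearman correlation 0.065 across 82 cells of 1 library, a description).

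Tmsb10 was not alone at 0 in the treated library. Of 110 genes with at least 1000 uninjected counts, 47 had no treated count (42.7%), and Tmsb10 was the only one of the 8 genes with that many counts. The other 4 with the most uninjected counts were Gngt2 (7459 counts), a subunit of the cone transducin, Opn1sw (6935 counts), the short-wavelength cone opsin, Guca1a (5193 counts), a guanylate cyclase activator, and Gm8797 (4752 counts). Of the 446 stretches of Gm8797, 386 also occur in other transcripts, so its own counts are uncertain. In the measure used to choose Tmsb10, the log-fold explained below, it stood at -4.98 and the next gene, Gngt2, at -4.15. Genes at 0 were short: among the 110 genes the median exon length was 1547 bases in those at 0 and 4493 bases in those with a count. The annotated exons of Tmsb10 cover 1276 bases, near the median of the genes at 0. Exon length moved with the presence of counts in the treated library, and its part in the Tmsb10 difference was not tested.

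Tmsb4x, the other thymosin, is the main beta-thymosin of many tissues, but it was scarce in these cones. It had 180 counts (155 to 208) in 47 of 82 uninjected cells, up to 24 in 1 cell, and 1 count in 1 of 64 treated cells. Its share was 33.7 times higher in the uninjected library (5.98 to 1339, exact conditional interval). In cells of 867 counts it was found in 9 of 81 and 1 of 50, a difference of a few cells. Per kilobase of exon, uninjected cones had 98.5 Tmsb10 counts per 10000 and 1.18 Tmsb4x counts per 10000. The counts come from the transcript ends and need not scale with exon length, so these values are only a rough description. The third thymosin gene that could be compared, Tmsb15b1, had 48 and 0 counts, and was at least 3.0-fold lower in treated cells.

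The cytoplasmic actins were both low in the treated library. Actg1 (chr11:120345690-120348542, minus strand), which encodes gamma-actin, had 427 counts (387 to 469) in 51 of 82 uninjected cells. It had 0 counts in treated cells, at least 26.7-fold lower. After thinning it was found in 20 of 81 uninjected and in 0 of 50 treated cells. Actb (chr5:142903115-142906754, minus strand), which encodes beta-actin, had 259 counts (228 to 293) in 48 of 82 uninjected cells and 1 count in treated cells. Its share was 48.5 times higher in the uninjected library (8.63 to 1924), and after thinning it was found in 12 of 81 and 0 of 50 cells. Among uninjected cells the Actb counts were uneven, since 1 cell held 114 of them (44.0%) and the top 3 cells held 68.0%. For Actg1 the top 3 cells held 42.4%, with 82, 71 and 28 counts. Most cells with either actin thus had few counts, and the median cell had 1 count of each.

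Counts of the actins were less surely their own than those of Tmsb4x. Of the 2897 Actg1 stretches, 1104 (38.1%) occurred in transcripts of other genes, mostly pseudogenes such as Gm12715 (988 stretches). Of the 2891 Actb stretches, 358 (12.4%) did so, of which 227 were shared with Lrrc58 and 50 with Actg1. The Actb and Actg1 coding sequences, of 1128 bases each, were 88.7% identical. Their longest shared run was 62 bases. Actin pseudogenes without a row in the table gave no value here. The only skeletal or smooth muscle actin that could be compared, Acta1, had 203 counts in uninjected and 55 in treated cells. Its share of the counts was 0.691 times as high in the uninjected library (0.511 to 0.949), the opposite direction to Actb and Actg1. Acta1 shares 33 stretches with Actb and 15 with Actg1, so some of its reads could be exchanged with theirs.

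Pfn1 (chr11:70651850-70654644, minus strand) had 104 counts (85.0 to 126) in 31 of 82 uninjected cells and 2 counts in 2 of 64 treated cells. Its share was 9.74 times higher in the uninjected library (2.63 to 81.5). None of its 2446 stretches occurred in annotated transcripts of another gene, so no exact stretch shared with these makes the counts uncertain. Near matches and the rest of the genome were not searched. Again a few cells carried much of the gene, with 51.0% of the uninjected counts in the top 3 cells (26, 21 and 6 counts). After thinning Pfn1 was found in 5 of 81 and 0 of 50 cells, a gap too small to read at that depth.

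Cfl1 (chr19:5490455-5495201, plus strand) differed from the other genes with over 100 uninjected counts. It had 193 counts (167 to 222) in 52 of 82 uninjected cells and 35 counts (24.4 to 48.7) in 5 of 64 treated cells. The summed libraries held equal shares, with a ratio of 1.03 (0.718 to 1.53), while the share of cells with a count was 63.4% (52.0% to 73.8%) against 7.81% (2.59% to 17.3%). The 5 treated cells had 17, 15, 1, 1 and 1 counts. The cell with 17 counts had a total of 1981, so that 85.8 of each 10000 of its counts were Cfl1. In uninjected cones 42 cells had exactly 1 count and 1 cell had 68, or 35.2% of all Cfl1 counts. Cfl1 counts were thus uneven in both libraries. After thinning Cfl1 was found in 13 of 81 uninjected and 3 of 50 treated cells, a much narrower gap than without it. Cfl1 overlaps Snx32 on the other strand, and 564 of its 2890 stretches (19.5%) occur in other transcripts, 383 of them in Snx32. Whether the counting used strand is not given in the sources used here, and Snx32 itself had 82 and 0 counts.

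The Arp2/3 subunits were near the limit of detection. Arpc2 (chr1:74236084-74268209, plus strand) had 22 counts (13.8 to 33.3) in 14 of 82 uninjected cells and 1 count in treated cells. The ratio of shares was 4.12 (0.666 to 170), so no difference was detectable at this depth. Arpc3 (chr5:122391878-122414184, plus strand) had 4 counts (1.09 to 10.2) in 3 of 82 uninjected cells and 1 count in treated cells, with a ratio of 0.749 (0.0742 to 36.9). Neither gene had more than 4 counts in any cell.

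**Figure D2:**
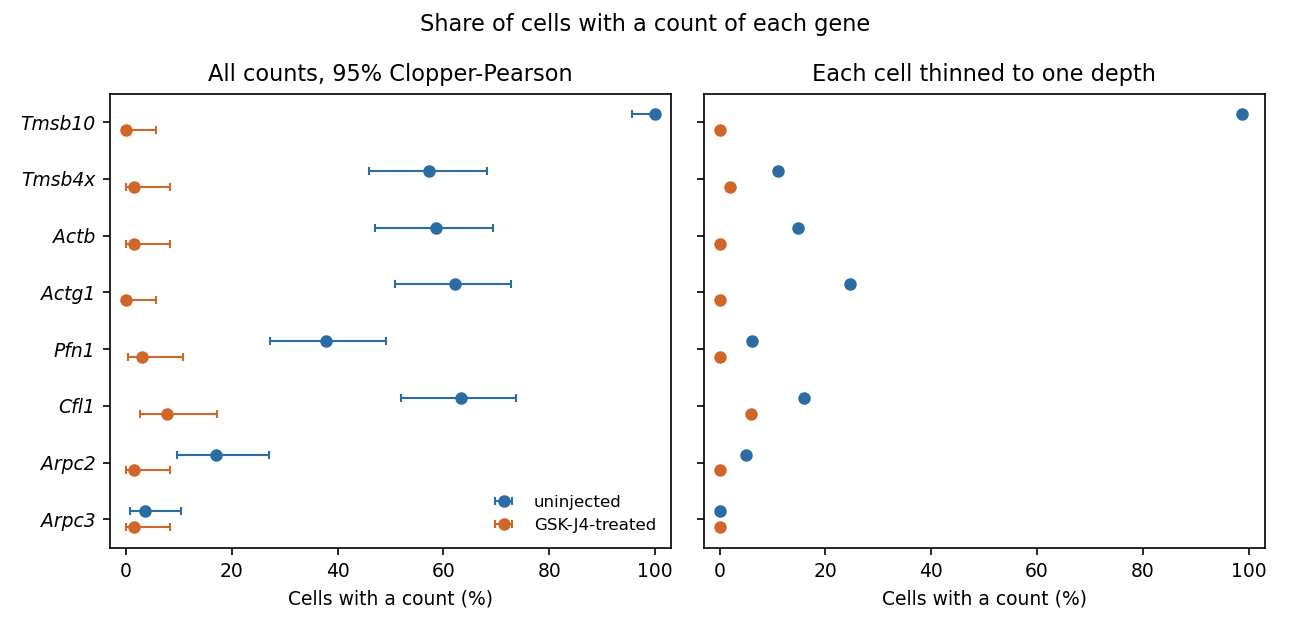
Percent of cells with a count of each of the 8 genes in uninjected and GSK-J4-treated cells, from all counts on the left with Clopper-Pearson 95% intervals as bars, and after thinning each cell to 867 counts on the right. Only Tmsb10 remained in nearly all uninjected cells after thinning (80 of 81), while the other genes dropped to between 0 and 20 of 81 cells.

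Summed, the 8 genes took 1.36% of uninjected counts (1.34% to 1.39%) and 0.0197% of treated counts (0.0141% to 0.0267%). Tmsb10 made up 92.2% of the uninjected sum. Without it the other 7 genes had 1189 counts, or 0.107% (0.101% to 0.113%), against 41 counts in the treated library, of which 35 were Cfl1. Uninjected cells had counts of 1 to 8 of the genes with a median of 4, and 33 of 82 cells had at least 5. The 7 uninjected cells with a single gene, always Tmsb10, were shallow, with totals from 874 to 5650. Of the treated cells, 54 of 64 had a count of none, 9 of 1 gene and 1 of 2 genes. At or below 2335.5 counts per cell these 7 had 22 of 20412 counts in uninjected and 20 of 36152 in treated cells. Of these 20, 19 were Cfl1, 17 of them in 1 cell, and without Cfl1 the other 6 genes had 17 uninjected counts and 1 treated count. The 6 treated cells above the uninjected median total had 65944 counts, of which 17 came from the 8 genes.

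A log-fold was used to compare genes of different abundance. Counts of each cell were scaled to 10000 and averaged within a library, 1 was added, and the natural log of the uninjected value was subtracted from that of the treated value. Adding 1 shrinks the values of scarce genes towards 0. The log-folds were -4.98 for Tmsb10, -1.67 for Actg1, -1.22 for Actb, -0.79 for Tmsb4x, -0.59 for Pfn1, -0.42 for Arpc2, -0.40 for Cfl1 and -0.025 for Arpc3. Arpc3 had a count in under 10% of the cells of both libraries and was left out of counts over genes. The other 7 entered through their share of uninjected cells and lay below -0.3, as did 1842 of 7682 genes (24%). A further 1568 genes (20.4%) lay above 0.3, among them none of the 7. Since they entered only where they were high, this count says nothing beyond the values themselves. Of the 3929 genes whose uninjected level was high enough to reach -0.3 at all, 46.9% did so. The median log-fold was -0.79 over the 7 genes and -0.0050 over the 7682. Of 1853 genes with at least 100 uninjected counts, 21.3% had 0 treated counts, as did 2 of the 6 genes described here with that many counts, Tmsb10 and Actg1.

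Uninjected cells from plate columns 1 to 6 (39 cells, 546722 counts) and 7 to 12 (43 cells, 566702 counts) differed in several of the genes, although the labels name no batch within the plate. Actb had 210 counts in columns 1 to 6 and 49 in columns 7 to 12, a ratio of shares of 4.44 (3.24 to 6.19). Without its top cell the Actb ratio was 2.08 (1.46 to 3.0). The next Actb cell, with 48 of the 96 counts then left in columns 1 to 6, was not left out in turn. Actg1 had 343 and 84 counts, with a ratio of 4.23 (3.33 to 5.44), and 3.47 (2.70 to 4.49) without its top cell. Summed counts of both actins were therefore higher on the same side of the plate. Tmsb4x had 130 and 50 counts, with a ratio of 2.70 (1.93 to 3.81), and 2.32 (1.64 to 3.32) without its top cell. Cfl1 had 128 and 65 counts, but its ratio went from 2.04 (1.5 to 2.80) to 0.979 (0.678 to 1.41) without its top cell. Pfn1, with 53 and 51 counts, went the other way, from 1.08 (0.719 to 1.61) to 2.08 (1.27 to 3.50). For Actb, Actg1 and Tmsb4x the sides of the plate thus differed by more than counting error with and without the top cell. For Actb this rested largely on the cells with 114 and 48 counts, both in columns 1 to 6. For Cfl1 and Pfn1, 1 cell decided the call. Tmsb10 was slightly lower in columns 1 to 6, also by more than counting error. It had 6592 and 7406 counts and a ratio of 0.923 (0.892 to 0.954), or 0.844 (0.815 to 0.874) without its top cell. Arpc2 had 6 and 16 counts, Arpc3 0 and 4, and neither differed between sides beyond counting error. In the treated library Tmsb10 and Actg1 were at 0 on both sides.

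**Figure D3:**
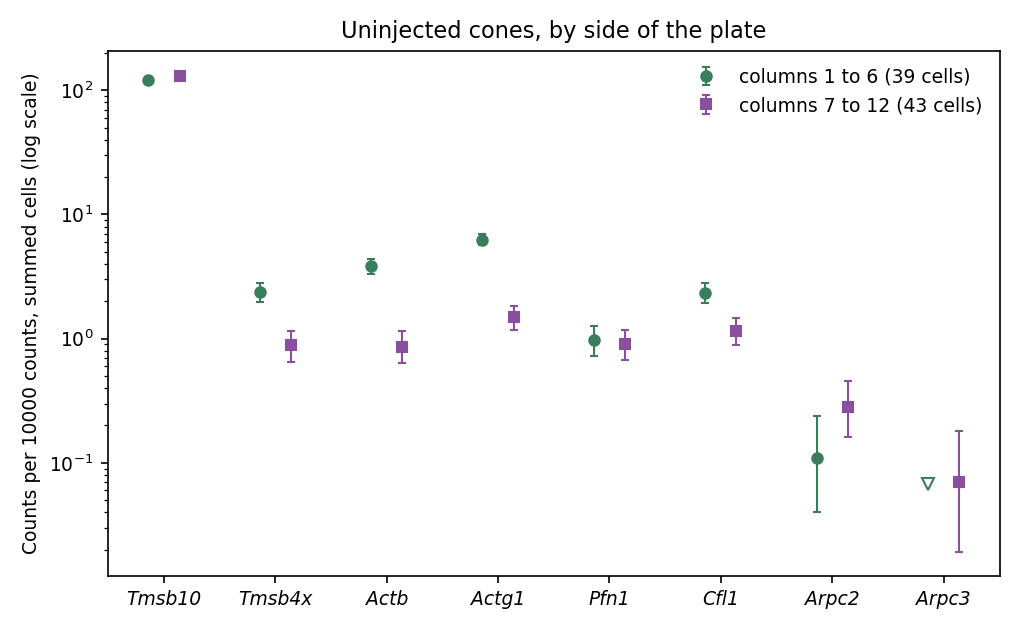
Counts per 10000 (log scale) of the 8 genes in uninjected cells of plate columns 1 to 6 (circles, 39 cells) and 7 to 12 (squares, 43 cells), with exact Poisson 95% intervals as bars, and an open triangle at the upper limit of that interval for a gene with 0 counts. Actb, Actg1, Tmsb4x and Cfl1 lie higher in columns 1 to 6, while Tmsb10 lies slightly lower there.

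From cell to cell the 8 genes were not tightly linked. Over the 82 uninjected cells, the Spearman correlation between pairs of the genes, on counts per 10000, ran from -0.22 (Actb and Arpc2) to 0.27 (Tmsb4x and Actg1). Tmsb10 had values between -0.14 and 0.13 with the other 7. These cells share 1 library and differ in depth, and the counts of all but Tmsb10 are sparse, so such weak values are no finding. Of 792 genes detected in at least 50% of uninjected cells, the 5 most like Tmsb10 were Gm9844 (correlation 0.52), Gngt2 (0.50), Opn1mw (0.43), Rpl41 (0.42) and Gm8797 (0.41). After thinning the correlation fell to 0.27 for Gm9844, 0.41 for Gngt2, 0.28 for Rpl41 and 0.29 for Gm8797, and was 0.44 for Opn1mw. Gm9844 is the near-identical copy of Tmsb10 shown above and may hold its reads. Opn1mw, the medium-wavelength cone opsin, kept 304 counts in treated cells against 4831 in uninjected cones.

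The rest of the actin machinery was scored by role, from lists that held 130 further genes. Of these 107 had a row after filtering and 68 were detected in at least 10% of cells of either library. Of the 68 genes, 14 lay below -0.3, 8 above 0.3 and 46 between, with a median log-fold of -0.02. The background was 24% below and 20.4% above, so both shares were near or under that of all genes. With 35 of the 68 abundant enough to reach -0.3, 14 did so, against 46.9% of all such genes. The wider actin list as a whole was thus not lower beyond the background.

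Within the lists, the lowest and highest genes were as follows. Myl6, the essential light chain of non-muscle myosin, was the lowest with 1747 and 0 counts (log-fold -3.07). It was at least 109-fold lower, while Myo7a, the unconventional myosin of photoreceptors and pigment epithelium, lay at 0.45 with 8 and 14 counts. Of 8 myosin genes, 2 were below -0.3 and 1 above 0.3. Dstn, destrin, a relative of cofilin, had 219 and 0 counts, at least 13.7-fold lower. In the same list of 4 profilin and cofilin genes, Cfl2 was also below -0.3 and Pfn2 was the highest at 0.02. Of the 3 Arp2/3 subunits, Arpc1a had 95 and 0 counts (log-fold -0.84), and Actr2 and Actr3b lay at -0.05 and -0.02. Of the 95 Arpc1a counts, 94 came from plate columns 7 to 12. Capzb, which caps the fast-growing filament end, had 171 and 2 counts (log-fold -0.83), and Tmod3, a cap of the other end, stood at 0.43 on 9 and 10 counts.

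Among 15 nucleation promoters and formins, 4 were below -0.3, the lowest being the formin Fmn1 (-0.83, 76 and 2 counts), and 2 above 0.3, the highest being the formin Diaph2 (0.52, 6 and 12 counts). Of 20 bundling, crosslinking and side-binding genes, 0 were below -0.3, the lowest being the tropomyosin Tpm1 at -0.23, and 2 above 0.3, Add1 and Flnc, with the filamin Flnc at 0.48. Add2, an adducin named here after its value was seen, had the most counts of the actin genes, 26086 and 5968, with a log-fold of 0.02. Tubulins, the subunits of microtubules, were listed beside actin. Of 4 tubulin genes, 3 were below -0.3, the lowest being Tubb5 at -1.40 with 212 and 1 counts, and Tubg1 was the highest at -0.05.

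**Figure D4:**
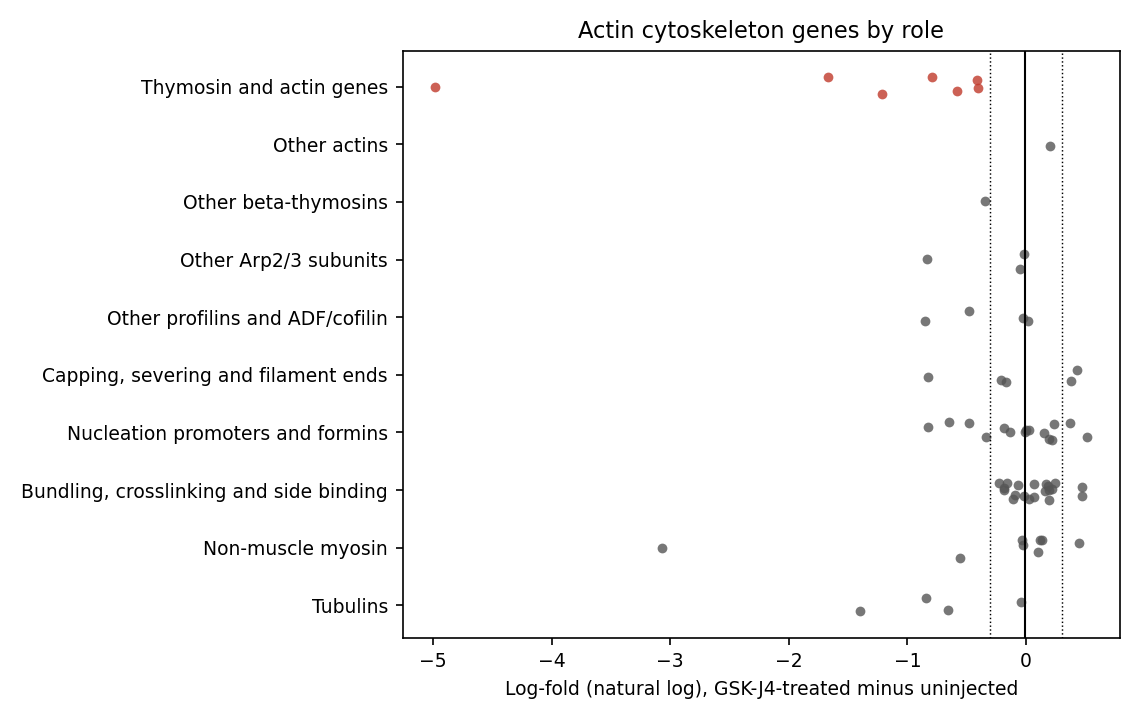
Log-fold (natural log, GSK-J4-treated minus uninjected) of each gene detected in at least 10% of cells of either library, 1 point per gene, by role, with dotted lines at -0.3 and 0.3 and a solid line at the median of all 7682 genes. The thymosin and actin genes in the top row, chosen with this difference known, all lie left of -0.3, while most genes of the other roles lie between the dotted lines.

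Markers of other cell types were summed because actins and thymosins are abundant in many cells that a retinal sort could hold. Microglia markers took 0.000629% of uninjected and 0.00336% of treated counts, on 7 counts each, with 3 of 9 listed genes in the table and P2ry12, C1qb, C1qc, Aif1, Csf1r and Tyrobp having no row. They took at most 0.0127% of any uninjected cell and 0.0619% of any treated cell. Müller glia markers, 8 of 8, took 0.111% of uninjected counts (0% to 3.91% per cell) and 0.0316% of treated counts (0% to 0.650%). Rod markers, with 8 genes summed, took 0.219% (0% to 1.14%) and 0.0120% (0% to 0.141%), with Nr2e3 and Gngt1 at 0 in treated cells. Endothelial markers, 5 of 5, took 0.0102% (0% to 0.193%) and 0.0168% (0% to 0.117%), with Cldn5 at 0 in treated cells. Bipolar markers, 6 of 7, took 0.00736% (0% to 0.152%) and 0.0158% (0% to 0.224%), and amacrine markers, 6 of 6, 0.00476% (0% to 0.399%) and 0.0125% (0% to 0.238%). Pericyte, ganglion, horizontal and pigment epithelium markers each took under 0.02% of the counts of either library, and the 3 erythrocyte markers had no row. Of the 82 uninjected cells, 81 had a rod marker count, 74 had a Müller glia marker count and all 82 had Tmsb10 counts. The part of rod and Müller glia RNA in the thymosin and actin differences was not tested.

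Promoters were searched because several of the genes were low together and because serum response factor, a regulator of actin genes, binds the CArG box, a run of A and T bases between CC and GG. RefSeq promoter windows (GRCm38.p6) of 250 bases before to 50 after the start were at hand for 7 of the 8 genes, all but Actb, and both strands were searched. A CArG box was found in 1 of the 7, Actg1, and in 1.81% of 27025 genes. The box lies at chr11:120348576-120348585 on the minus strand, from 90 to 81 bases before the RefSeq start. That start lies 47 bases inside the GENCODE gene given above. The box is shown in capitals within chr11:120348566-120348595.
Actg1 promoter: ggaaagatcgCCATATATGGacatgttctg
The CCAAT motif was found in 2 of the 7, Actg1 and Cfl1, and in 41.1% of all genes. TATAAA was found in 0 of the 7 and in 15.7% of all genes. These matches describe letters in the windows and say nothing about binding in these cones.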

How the data were processed

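Cones were sorted by GFP, 1 per well, and sequenced with a protocol adapted from SMARTseq2 and MARS-seq. The authors deposited raw counts per gene and cell, without normalization. They demultiplexed reads by plate and barcode, used the CLC Genomics Workbench v.20 for alignment, collapsed duplicates by UMI and position, ran featureCounts with Gencode M17 and added the counts of both transcript ends. The genome is given as GRCh38, a human build number, so coordinates and sequences here were taken from GRCm38 with GENCODE vM21. The batch correction of the methods was not applied.

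Genes seen in 3 or more cells were kept (15947 of 17774), as were cells having 200 or more genes and no more than 5% of mitochondrial counts (146 of 151). The file held 66 GSK-J4-treated cells, fewer than the study states, and every one of its columns belonged to 1 of the 2 libraries. No doublet caller was run, since each well held 1 sorted cell. Total counts per cell, given in the report, set the precision.

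Log-folds, exact Poisson, Clopper-Pearson and conditional binomial 95% intervals were computed in Python 3.11.15 using scipy 1.17.1, numpy 2.4.6 and pandas 2.3.3, figures were drawn with matplotlib 3.10.9, and the calculation was tested on simulated data. A gene at 0 was given a floor of 3 counts over the library. Thinning drew 867 counts per cell without replacement (10th percentile), leaving out 1 uninjected and 14 GSK-J4-treated cells. The genes and lists were chosen with earlier results of these data known. Genes named were the 8 genes, the lowest and highest of each list, the 5 most like Tmsb10 and the 5 most abundant at 0 in GSK-J4-treated cells. Others named were chosen after their values were seen. The values of 1 list and of 1 rod marker are not reported here. Alternatives were scaling by summed libraries or median ratios, thinning, a pseudocount of 0.1, no filter, at least 500 genes per cell, low-depth cells and each side of the plate.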

Additional observations from a re-analysis of the deposited data

How the results depend on the processing

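Log-folds were recomputed under 10 alternatives, 1 of them, leaving out the cell with the most counts of the gene in each library, chosen after seeing the data. Tmsb10 stayed between -7.28 and -4.84, Actg1 between -3.79 and -1.46, Actb between -3.07 and -0.75 and Pfn1 between -1.75 and -0.48, below -0.3 in all 10. Tmsb4x ran from -1.90 to -0.20 (9 of 10 below -0.3), Cfl1 from -0.89 to 0.37 (6 of 10) and Arpc2 from -1.75 to -0.13 (6 of 10). Cfl1 reversed to 0.37 in cells at or below 2335.5 counts, and was -0.89 without its top cells. Arpc3 reversed to 0.038 in plate columns 1 to 6 and to 0.012 with summed libraries, on 4 and 1 counts. The cause was not tested.

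Numbers of genes beyond 0.3 leave out genes that fell under the 10% limit on detection with that setting. Of the 8 genes, 5 were counted below -0.3 with summed libraries, after thinning, with at least 500 genes per cell and in columns 1 to 6 alone. The number was 6 with median-ratio scaling. It stayed at 7 with no filter, with a pseudocount of 0.1 and in columns 7 to 12 alone. In cells at or below 2335.5 counts, Tmsb10 was -5.12, 4 of the 8 genes passed the 10% limit on detection and lay below -0.3, in place of 7 (Arpc2, at -0.85, was under that limit), the other Arp2/3 subunits below it numbered 0 in place of 1, and of the wider actin genes 7 were below and 5 above 0.3, in place of 14 and 8. There the 8 genes took 1.87% of uninjected and 0.0553% of GSK-J4-treated counts. With median-ratio scaling Tmsb10 was -5.13, the Arp2/3 subunits 2, and the wider genes 23 below and 1 above; this scaling moved the median of all genes to -0.14 and gave 2611 lower and 625 higher genes, 80.7% lower of those called against 54.0%. With a pseudocount of 0.1 Tmsb10 was -7.28 and the wider genes 27 below and 23 above. After thinning the Arp2/3 subunits numbered 0, the wider genes 3 below and 1 above, and the 8 genes took 1.60% of uninjected counts, while 1510 genes passed the 10% limit, with a median of 0.23 and 45.5% lower of those called. Tmsb10 was -5.04 in columns 7 to 12 alone, and the Arp2/3 subunits below -0.3 numbered 0 in columns 1 to 6 and 2 in columns 7 to 12.

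No paired analysis was possible because each group was 1 library, and there was no replicate to leave out. Depth limits Arpc2 and Arpc3 most, and no interval here covers differences between animals, plates or sorts.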
